A study of Rattus norvegicus with 87 samples.

Results

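Transcripts of secreted or shed proteins were followed in the lateral habenula (LHb) of outbred Heterogeneous Stock (HS) rats. These proteins are textbook products of the choroid plexus and the leptomeninges. The genes were chosen by identifier and were Ttr (ENSRNOG00000016275), Enpp2 (ENSRNOG00000004089), Kl (ENSRNOG00000001092), Igf2 (ENSRNOG00000020369) and Igfbp2 (ENSRNOG00000016957). All 5 were present among the 17512 genes of the table, and all 5 were above 0 in every rat. The LHb is a small paired nucleus of the epithalamus near the third ventricle. Both sides of each rat had been picked by hand from frozen sections under a camera, pooled into 1 sample, and sequenced as polyadenylated RNA.

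HS rats descend from crosses among inbred founder strains, so each animal carries its own mosaic of founder haplotypes. No treatment or engineered allele separated the rats: per the labels, none had been tested or dosed, and cages were shared. Values were available for 81 rats, 41 males and 40 females, and a further 6 samples that the authors had removed were not analysed here. The rats carried a rat batch in their labels: batch 2 had 11 males and 4 females, batch 3 had 10 males and 12 females, batch 4 had 12 males and 15 females, and batch 6 had 8 of each sex. Batch 5 had 1 female, whose values are given but which entered no fit, so each main fit used 80 rats. Fits within a part of the rats used fewer. Rats are called by sex and number, and the numbers only name them.

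The choroid plexus is an epithelium that hangs into the ventricles, makes cerebrospinal fluid and secretes carrier and signaling proteins into it. Transthyretin, from Ttr, carries thyroid hormone and, with retinol-binding protein, retinol, and is among the most abundant products of that epithelium. Autotaxin, from Enpp2, is a secreted enzyme that makes lysophosphatidic acid and is also made by oligodendrocytes. Klotho, from Kl, is a co-receptor for the hormone FGF23 whose outer part can be shed. Igf2 encodes insulin-like growth factor 2 and Igfbp2 a binding protein that holds it in fluid, and both are also known from leptomeningeal and vascular cells. These origins are background: the table holds identifiers without symbols, the other markers of these cell types were not matched to it here, and the tissue of origin of the 5 transcripts was not tested. In bulk tissue, fewer cells of a type and less RNA per cell cannot be told apart.

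The windows directly before the annotated start sites are shown because the genes moved together, in the 2 sets described below. RefSeq (rat build GRCr8) gave such a window for 4 of the 5 genes, not for Enpp2. The 250 bases before each start are printed 5′ to 3′ along the gene. Capitals mark matches on either strand to 5 short motifs, TAATCC (the core bound by bicoid-type homeodomains), GGGCGG (the GC box core), TATAAA (the TATA box core), CACGTG (an E-box) and TGTTTAC (a forkhead core), of which none overlapped another.
Ttr, chr18:12218508-12218757, plus strand: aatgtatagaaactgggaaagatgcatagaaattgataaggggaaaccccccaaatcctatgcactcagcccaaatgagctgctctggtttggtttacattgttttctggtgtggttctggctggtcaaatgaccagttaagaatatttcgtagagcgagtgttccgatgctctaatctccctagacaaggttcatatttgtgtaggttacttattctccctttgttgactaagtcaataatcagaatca
Kl, chr12:5325753-5326002, plus strand: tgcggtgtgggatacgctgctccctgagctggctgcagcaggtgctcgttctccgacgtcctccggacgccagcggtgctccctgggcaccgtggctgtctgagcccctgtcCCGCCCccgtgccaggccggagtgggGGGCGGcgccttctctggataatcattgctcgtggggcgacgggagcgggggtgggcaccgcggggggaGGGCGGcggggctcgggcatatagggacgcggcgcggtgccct
Igf2, chr1:207250476-207250725, minus strand: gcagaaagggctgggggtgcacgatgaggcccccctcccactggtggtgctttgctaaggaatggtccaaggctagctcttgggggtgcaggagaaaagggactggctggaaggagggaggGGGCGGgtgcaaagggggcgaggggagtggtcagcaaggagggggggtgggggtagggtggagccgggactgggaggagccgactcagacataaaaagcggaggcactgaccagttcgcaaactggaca
Igfbp2, chr9:81864561-81864810, plus strand: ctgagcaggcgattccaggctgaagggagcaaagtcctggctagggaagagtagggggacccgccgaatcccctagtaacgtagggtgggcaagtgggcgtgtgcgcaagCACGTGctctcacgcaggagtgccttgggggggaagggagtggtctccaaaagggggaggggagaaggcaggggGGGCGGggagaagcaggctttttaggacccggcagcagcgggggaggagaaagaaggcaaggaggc

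Ttr and Kl, the pair with the highest Pearson's r on the log2 scale, had windows of very different composition. The Ttr window had a GC content of 40.4%, and 14.7% of the 33465 windows searched had less. The Kl window had 73.2%, and 95.1% of windows had less. Igf2 and Igfbp2 were alike at 63.6% and 64.0%, against a median of 51.2% over all windows. The table gave Igf2 another start site, with a GC content of 62.4% and no match to the 5 motifs. GC box cores were found 3 times in the Kl window and once each in those of Igf2 and Igfbp2, and 30.5% of all windows held at least 1. The E-box was found once, in the Igfbp2 window, 140 to 135 bases before the start, and 5.59% of all windows held one. No TAATCC (in 6.34% of windows), TATAAA (12.9%) or TGTTTAC (3.22%) was found in the printed windows, nor any of the 5 motifs in that of Ttr. Matches describe these letters only.

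Levels are given as log2 of the adjusted count plus 1, where the adjusted count is the authors' estimated read count of a gene after upper quartile scaling. Transcript lengths were not at hand, so levels are compared between rats and not between genes. Ttr had the widest range of the 5 genes. It ran from 6.63 (an adjusted count of 98) through a median of 13.93 (15555) to 16.85 (117844), a 1202-fold span of counts. Its mean was 13.49 ± 2.16 (SD, n = 81). In the rat with least Ttr it made up 0.000545% of all adjusted counts, in the median rat 0.0930%, and in the rat with most 0.632%.

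Kl ran from 3.70 (12) through 7.68 (204) to 10.85 (1845), with a mean of 7.71 ± 1.70 (SD, n = 81), a 154-fold span. Enpp2 ran from 11.49 through 12.45 to 14.58, with a mean of 12.61 ± 0.75 (SD, n = 81), an 8.54-fold span. Igf2 ran from 9.15 through 10.55 to 12.31, with a mean of 10.49 ± 0.73 (SD, n = 81). Igfbp2 ran from 7.42 through 9.26 to 11.92, with a mean of 9.29 ± 0.87 (SD, n = 81). None of the 5 genes showed a set of rats in which it was absent.

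Sex and batch left most of this spread in place. After both were removed, the residual SD was 1.84 for Ttr, 1.40 for Kl, 0.80 for Igfbp2, 0.69 for Igf2 and 0.61 for Enpp2, against a median of 0.28 over 17512 genes. Low counts inflate the SD on this scale, so each gene was also ranked among genes whose mean log2 level was within 0.5 of its own. Ttr had the largest residual SD of 158 such genes, whose median was 0.15. Enpp2 ranked 6th of 375, Igf2 7th of 2021, Kl 10th of 2114 and Igfbp2 14th of 2692. Batch accounted for 37.5% of the variance of Enpp2, 34.7% of Kl, 29.9% of Ttr, 15% of Igfbp2 and 12% of Igf2, against 17.5% for the median gene. Sex accounted for 3.86% of Igf2 and 3.44% of Igfbp2, at most 0.13% of the other 3 genes, and 0.44% of the median gene.

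**Figure D1:**
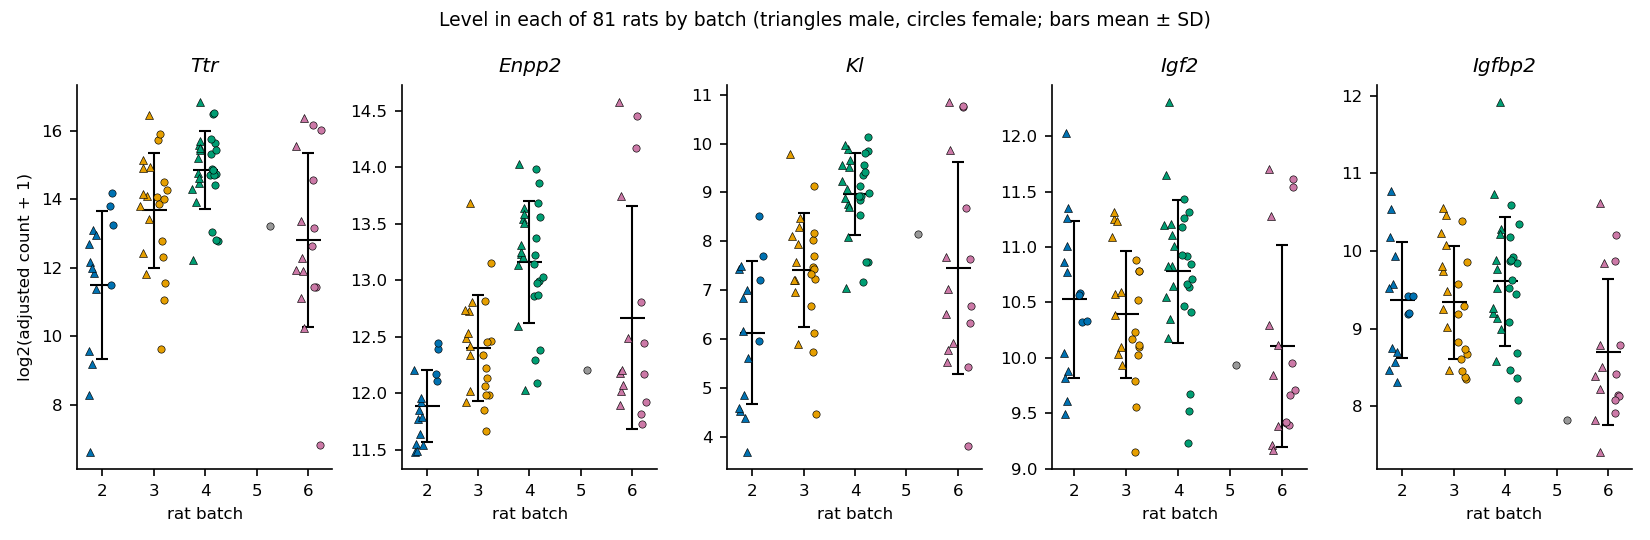
Level of each gene as log2(adjusted count + 1) in each of 81 rats, by rat batch, with triangles for males, circles for females, and bars for the mean ± SD of each batch with more than 1 rat. Batch 4 had the highest mean for all 5 genes, and the lowest Ttr values, 6.63 and 6.82, were in batches 2 and 6.

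Single rats show how the genes went together and apart. The rats with the least Ttr were male rat 2 of batch 2, at 6.63, and female rat 8 of batch 6, at 6.82. Both also had the least Kl, 3.70 and 3.81. Their Enpp2 was 11.77 and 11.73, inside the range of rats with much more Ttr. They differed in the growth factor genes: Igf2 was 11.36 in male rat 2 and 9.41 in female rat 8, and Igfbp2 was 10.18 and 8.14. Male rat 2 thus had the lowest Ttr of all 81 rats beside an Igf2 above the 75th percentile of 11.01.

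At the other end, male rat 35 of batch 4 had the most Ttr, 16.85, and also the most Igf2, 12.31, and the most Igfbp2, 11.92. Enpp2 and Kl peaked in male rat 33 of batch 6, at 14.58 and 10.85. In batch 6, male rat 33 and female rats 21 and 27 were high for all 5 genes, with Enpp2 from 14.17 to 14.58, whereas the median Enpp2 of that batch was 12.20. The female of batch 5 had a Ttr of 13.21, a Kl of 8.15, an Enpp2 of 12.21 and an Igf2 of 9.94, and its Igfbp2 of 7.83 was near the low end of the range.

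Over all 81 rats, Pearson's r fell into 2 sets, Ttr, Kl and Enpp2 on one side and Igf2 and Igfbp2 on the other. Ttr and Kl were correlated with Pearson's r = 0.945 (Spearman's rho 0.951, n = 81), Enpp2 and Kl with r = 0.918 (rho 0.956), and Ttr and Enpp2 with r = 0.840 (rho 0.941). Igf2 and Igfbp2 were correlated with r = 0.922 (rho 0.926). The 6 pairs that crossed the sets had r from 0.560 (Kl and Igfbp2) to 0.648 (Enpp2 and Igf2). For each of the 10 pairs the adjusted p was 1e-05 for both coefficients, the smallest that 100000 permutations can give (two-sided, adjusted over the 10 pairs). Leaving out the 2 rats farthest from the median of the first gene gave r from 0.599 to 0.690 for the crossing pairs and from 0.880 to 0.944 for the other 4.

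A like split appeared after sex and batch were removed (n = 80). Within them r was 0.940 for Ttr and Kl, 0.889 for Enpp2 and Kl, 0.814 for Ttr and Enpp2 and 0.921 for Igf2 and Igfbp2. The crossing pairs had r from 0.646 to 0.777, and all 10 pairs again had an adjusted p of 1e-05 in a permutation test within sex and batch. Neither the scaled total of a library nor its number of genes at 0 passed the threshold against any of the 5 genes in 10 relations (permutation test, n = 81), where the adjusted p of Pearson's r was at least 0.101 and that of rho at least 0.0815. The number of genes at 0 had r = 0.258 and rho = 0.256 with Ttr, the largest r of the 10, and r = 0.254 and rho = 0.274 with Enpp2, the largest rho. Without the 2 farthest rats, r was 0.342 for Ttr and 0.322 for Enpp2. For Igfbp2 and the scaled total, r went from 0.222 to 0.3375 without the 2 farthest rats. The values without these rats were not tested.

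The relation of Enpp2 to Ttr was curved. Among the rats with little Ttr, Enpp2 rose little with it. Male rat 2 of batch 2 had an Enpp2 of 11.77, and male rat 31 of that batch 11.49 with a Ttr of 9.20. Male rat 44 had 11.49 with a Ttr of 11.99, but female rat 1 had 12.11 with a Ttr of 11.50. These rats were all of batch 2, whose highest Ttr was 14.20. Over its 15 rats, Ttr and Enpp2 still had r = 0.647 (adjusted permutation p = 0.0215) and rho = 0.746. In batch 6, Enpp2 was 11.73 in female rat 8 (Ttr 6.82), 12.18 in male rat 5 (11.95) and 14.58 in male rat 33 (16.38). The part of batch in the curve was not tested. Among rats with a Ttr over 16, Enpp2 lay between 13.68 and 14.58. On the linear scale of adjusted counts, Enpp2 and Kl had r = 0.980 over the 81 rats, and Ttr and Enpp2 0.895.

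**Figure D2:**
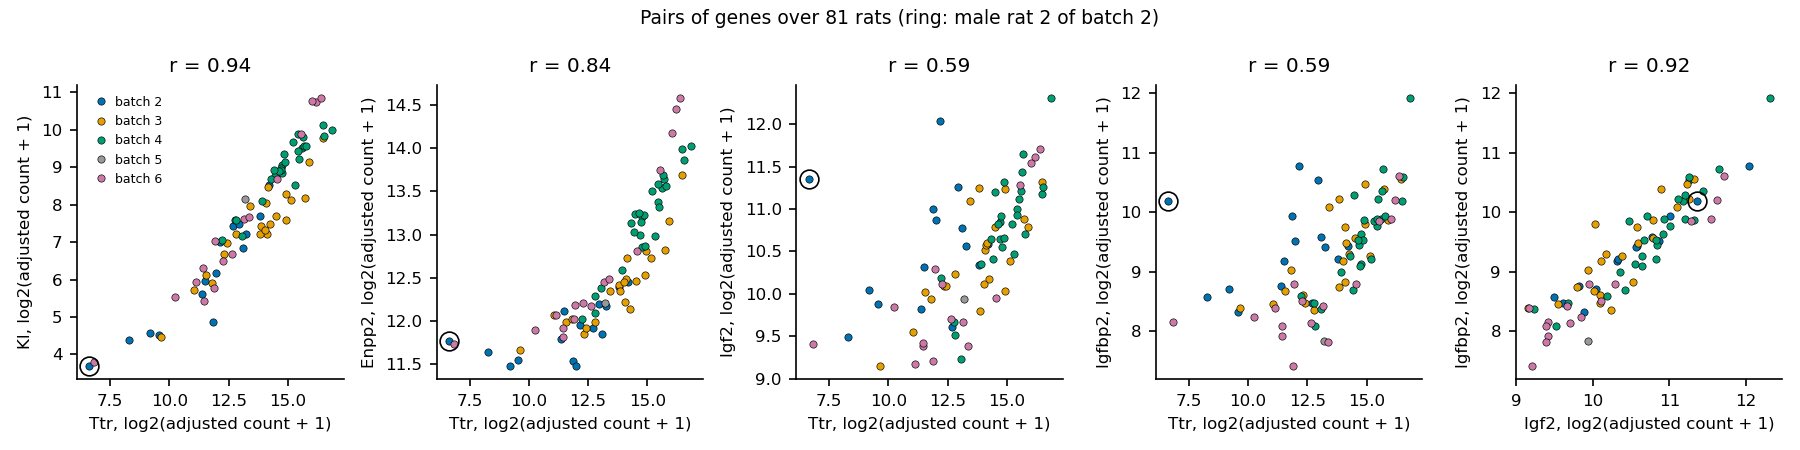
Levels of 5 pairs of genes as log2(adjusted count + 1) in 81 rats, each point a rat colored by batch, with Pearson's r of each pair above it and a ring around male rat 2 of batch 2. Ttr and Kl form a narrow band (r = 0.945), and Enpp2 rises little at low Ttr. Several rats of batch 2 lie above the rest where Igf2 and Igfbp2 are plotted against Ttr.

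Within batches, Ttr and Kl kept r between 0.922 and 0.962, and Igf2 and Igfbp2 between 0.851 and 0.967. The crossing pairs had r from 0.656 to 0.777 in batch 3 (n = 22), from 0.766 to 0.865 in batch 4 (n = 27) and from 0.750 to 0.936 in batch 6 (n = 16), and all 10 pairs passed the threshold in each of these 3 batches (permutation test, adjusted over 10 pairs). In batch 2 (n = 15) the crossing pairs had r from 0.150 (Ttr and Igf2) to 0.261 (Enpp2 and Igfbp2) and rho from 0.146 to 0.279, each with an adjusted permutation p of r of 0.596, and the 4 pairs inside the sets passed. The 95% interval of r for Ttr and Igf2 in batch 2 was wide, from -0.39 to 0.61. Elsewhere the sets were less distinct by r. In batch 6, Enpp2 and Igf2 (0.936) exceeded Ttr and Enpp2 (0.875), but by rho the order was reversed (0.706 against 0.962). Over the 47 rats of the third run of columns (explained below), the crossing pairs had r from 0.807 to 0.895. The pairs inside the sets had r from 0.890 to 0.962. The rho of the crossing pairs, 0.855 to 0.902, lay below that of the others, 0.936 to 0.976.

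The low r of Ttr and Igf2 in batch 2 rested in part on 1 rat. Without male rat 2, r in batch 2 was 0.473 for Ttr and Igf2, 0.501 for Ttr and Igfbp2 and 0.213 for Enpp2 and Igf2 (n = 14), and still 4 of the 10 pairs passed in the permutation test. All of batch 2 stood in the first of 3 alphabetical runs of columns, called column runs here, together with 7 rats of batch 3. Over the 22 rats of that run, r was 0.166 for Ttr and Igf2 and 0.114 for Ttr and Igfbp2. The 7 rats of batch 3 alone gave r = 0.772 for Ttr and Igf2 (exact permutation p = 0.0456, adjusted over 10 pairs 0.0652) and 0.581 for Ttr and Igfbp2 (exact p = 0.177, adjusted 0.177). Separately by sex over all batches, Ttr and Igf2 had r = 0.507 in males (n = 41) and 0.801 in females (n = 40). Without the 2 rats of each sex farthest from its median Ttr, r was 0.633 and 0.822. Batch 2, where this pair had r = 0.150, gave 11 of the males and 4 of the females. In females, Kl and Igf2 (0.834) slightly exceeded Ttr and Enpp2 (0.824). Without the 2 females farthest from the median of the first gene, this order was reversed (0.819 and 0.876). The difference between the sexes was not tested.

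**Figure D3:**
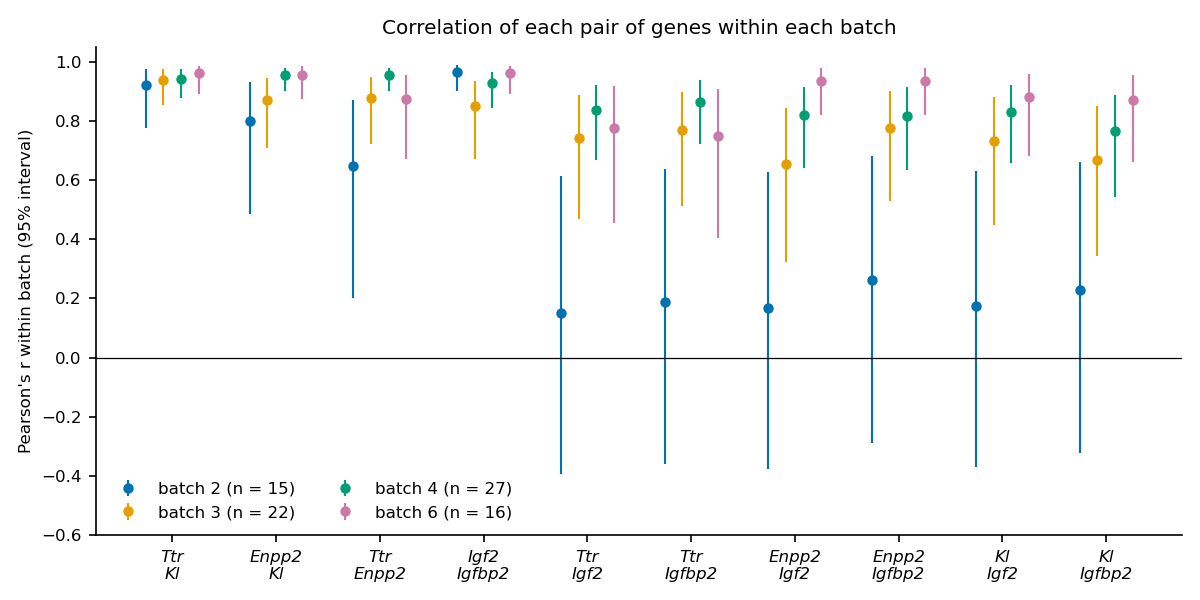
Pearson's r of each of the 10 pairs of genes within batches 2, 3, 4 and 6, with 95% intervals, and n = 15, 22, 27 and 16 rats. The first 4 pairs lie inside a set and have r of at least 0.647 in every batch, whereas the 6 crossing pairs have r of at most 0.261 in batch 2.

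Whether the slope on Ttr differed between batches was tested for every other gene with limma, with sex and batch in the model. Of 17511 genes, 14.9% passed. Enpp2, Igf2 and Igfbp2 passed and Kl did not. The slope of Enpp2, in log2 units per log2 unit of Ttr, was lowest in batch 2, at 0.10 ± 0.035 (SE), followed by 0.24 ± 0.037 for batch 3, 0.45 ± 0.048 for batch 4 and 0.34 ± 0.029 for batch 6 (limma F-test, adjusted p = 0.00038, n = 80). That of Igf2 was 0.07 ± 0.060, 0.23 ± 0.062, 0.47 ± 0.082 and 0.28 ± 0.048 in the same order (adjusted p = 0.022). That of Igfbp2 was 0.09 ± 0.066, 0.31 ± 0.069, 0.63 ± 0.091 and 0.28 ± 0.054 (adjusted p = 0.006).

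The slope of Kl was steep in every batch, 0.62 ± 0.057, 0.65 ± 0.059, 0.70 ± 0.078 and 0.82 ± 0.046 (adjusted p = 0.13). Leaving out male rat 2 of batch 2 raised the adjusted p of Igf2 to 0.22 and that of Igfbp2 to 0.045, and the batch 2 slopes became 0.22 ± 0.071 and 0.25 ± 0.080. Leaving out male rat 35 of batch 4 took Igf2 to 0.053, and leaving out female rat 8 of batch 6 took Kl to 0.0044. The slopes were also steepest in batch 4, where Ttr itself was highest, for Enpp2, Igf2 and Igfbp2. The part of the Ttr level in these slopes was not tested.

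All 5 genes differed between batches. The F-test over batches 2, 3, 4 and 6 gave an adjusted p of 1.7e-07 for Enpp2, 6.6e-07 for Kl, 8.1e-06 for Ttr, 0.0071 for Igfbp2 and 0.023 for Igf2 (limma, adjusted over 17512 genes). Batch differences were common in this table, with 65.3% of genes passing, so 5 of 5 is not far from the background. No call of this F-test was lost when each of the 80 rats was left out in turn.

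Ttr was lowest in batch 2, where it ran from 6.63 through a median of 11.99 to 14.20. Batch 3 ran from 9.64 through 14.05 to 16.47, batch 4 from 12.24 through 14.86 to 16.85, and batch 6 from 6.82 through 12.46 to 16.38. All 4 ranges overlapped. Batch 4 exceeded batch 2 by 3.32 ± 0.59 (SE, log2 difference, adjusted p = 7.5e-06), and batch 3 exceeded batch 2 by 2.15 ± 0.61 (adjusted p = 0.022) in limma. Of the 5 genes, 1 passed between batches 3 and 2, where 7.44% of all genes did, and 3 passed between batches 4 and 2, where 33.9% did.

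Kl and Enpp2 were the other genes that differed between batches 4 and 2. Kl ran from 3.70 through 6.17 to 8.51 in batch 2 and from 7.04 through 9.07 to 10.14 in batch 4, a difference of 2.82 ± 0.45 (SE, limma adjusted p = 8.6e-07). Enpp2 ran from 11.49 through 11.85 to 12.45 in batch 2 and from 12.03 through 13.22 to 14.03 in batch 4, a difference of 1.29 ± 0.19 (adjusted p = 3.1e-07). The ranges of batches 2 and 4 overlapped at their edges for both genes.

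Igf2 and Igfbp2 did not pass between those batches. Igf2 was 10.53 ± 0.71 in batch 2 (SD, n = 15) and 10.78 ± 0.65 in batch 4 (SD, n = 27), with a 95% interval of the adjusted difference from -0.10 to 0.77. Igfbp2 was 9.37 ± 0.75 and 9.61 ± 0.83, with an interval from -0.18 to 0.84.

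Batches 3 and 4 differed for Ttr, Kl and Enpp2, 3 of the 5 genes, against 54.9% of all genes. Batch 4 exceeded batch 3 by 1.56 ± 0.39 for Kl (SE, limma adjusted p = 0.00047), by 0.76 ± 0.17 for Enpp2 (0.0001) and by 1.17 ± 0.51 for Ttr (0.047). The Ttr call was lost on leaving out any one of 27 rats, with an adjusted p of up to 0.098. Between batches 6 and 2, Enpp2 (0.79 ± 0.22, adjusted p = 0.0018) and Kl (1.31 ± 0.49, adjusted p = 0.026) passed, 2 of 5 against 42.4% of all genes. The Kl call was lost on leaving out any one of 5 rats, among them male rat 2 of batch 2 (0.056). Ttr gained a call without female rat 8 of batch 6 (1.66, adjusted p = 0.022), and Igfbp2 gained one on leaving out any one of 4 rats (adjusted p down to 0.029). Between batches 6 and 3, Igfbp2 alone passed among the 5 in this model, at -0.65 ± 0.25 (adjusted p = 0.022), against 59.2% of all genes. It did not pass without male rat 7 of batch 6 (adjusted p = 0.053).

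Batch 6 was lower than batch 4 in 4 of the 5 genes, whereas 6.04% of all genes passed, 3.69% higher and 2.35% lower in batch 6. The 5 genes were correlated over rats, so these 4 calls are not independent of one another. The log2 difference, batch 6 minus 4, was -2.02 ± 0.56 for Ttr (SE, limma adjusted p = 0.023), -1.51 ± 0.43 for Kl (0.025), -0.93 ± 0.24 for Igfbp2 (0.018) and -0.69 ± 0.21 for Igf2 (0.037). Enpp2 differed by -0.50 ± 0.19 (0.087). The ranges still overlapped for each gene: Igf2 ran from 9.23 through 10.83 to 12.31 in batch 4 and from 9.17 through 9.78 to 11.71 in batch 6, and Igfbp2 from 8.09 through 9.63 to 11.92 and from 7.42 through 8.40 to 10.61.

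The medians of batch 6 lay well below those of batch 4, while its highest rats reached or passed the highest of batch 4 in Enpp2 and Kl. Leaving out female rat 8 of batch 6 alone raised the adjusted p of Ttr, Kl and Igf2 to 0.061 each, so that they no longer passed, and Igf2 lost its call on leaving out any one of 13 rats. Enpp2 gained a call on leaving out any one of the 3 high rats of batch 6, female rats 21 (0.026) and 27 (0.038) and male rat 33 (0.025). The Igfbp2 call held whichever single rat was left out. With the number of genes at 0 per rat in the model, the 4 calls were lost, with adjusted p from 0.053 for Igfbp2 to 0.091 for Igf2, while the differences stayed close to those above, at -1.89 for Ttr, -1.42 for Kl, -0.86 for Igfbp2 and -0.65 for Igf2. Within the third column run, to which both batches belong, the same 4 genes passed, from -2.03 ± 0.54 for Ttr (adjusted p = 0.019) to -0.69 ± 0.23 for Igf2 (0.045), and 10% of all genes passed.

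Batch 2 lay wholly in the first column run and batches 4 and 6 in the third. Batch 3 had 7, 12 and 3 rats in the 3 runs. The other contrasts between batches thus nearly coincide with runs, and only the rats of batch 3 separate batch from run there. With column run in the model, comparisons of batches 4 and 6 with batches 2 and 3 rest on the 3 rats of batch 3 in the third run. Those rats had 1404, 1578 and 1550 genes at 0, where the median rat had 540. In that model, Ttr, Enpp2 and Kl no longer passed between batches 4 and 3. Nor did Enpp2 and Kl between batches 6 and 2, and all of these differences turned negative. Between batches 4 and 2 the differences of Ttr, Enpp2 and Kl shrank to 0.72, 0.20 and 0.87 in that model and no longer passed (adjusted p from 0.58 to 0.79). The Ttr difference of batches 3 and 2 was 1.43 there (adjusted p = 0.63). Ttr gained a call between batches 6 and 3 (-2.72, adjusted p = 0.043), and Igfbp2 gained one between batches 6 and 2 (-1.53, adjusted p = 0.044). Within the first run, 7 rats of batch 3 were compared with the 15 of batch 2, and none of the 5 genes passed in limma. No gene in the table did (0%), with 1507 genes at an unadjusted p under 0.05. Ttr differed there by 0.80 ± 0.82 (SE), with a 95% interval from -0.90 to 2.50. Within batch 3, the second run (12 rats) and the first (7 rats) did not differ in any of the 5 genes at the threshold, with adjusted p from 0.23 to 0.68, while 23% of all genes passed. The 3 rats of batch 3 in the third run were not in this comparison. Their mean Ttr was 15.51, against 13.01 in the first run and 13.61 in the second. Kl was 9.13 against 7.24 and 7.08, and Enpp2 13.19 against 12.11 and 12.38. Igf2 was 10.90 against 10.41 and 10.26, and Igfbp2 9.97 against 8.94 and 9.41. The third run was not tested against the others.

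**Figure D4:**
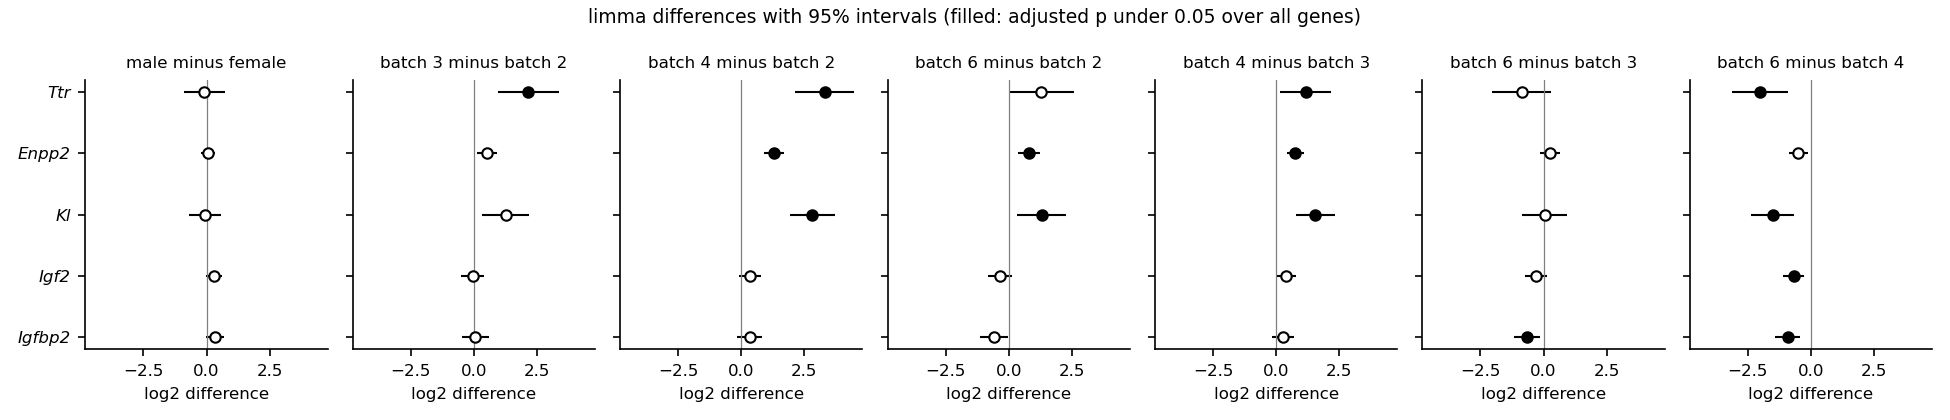
Differences in log2(adjusted count + 1) of the 5 genes between the sexes, adjusted for batch, and between each pair of batches, adjusted for sex, with 95% intervals from limma. Filled points have an adjusted p under 0.05 over 17512 genes: none for sex, and 4 of 5, all lower in batch 6, for batch 6 minus batch 4.

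The sexes did not differ in any of the 5 genes at the threshold. All 5 had an adjusted p of 1 in limma, and 0.131% of all genes passed. The estimates for Igf2 and Igfbp2 were on the male side, 0.29 ± 0.15 (SE, unadjusted p = 0.06) and 0.32 ± 0.18 (unadjusted p = 0.071), with 95% intervals from -0.01 to 0.60 and from -0.03 to 0.68. Males had a mean Igf2 of 10.62 ± 0.76 (SD, n = 41) and females in the fit 10.36 ± 0.68 (SD, n = 39). The intervals were -0.90 to 0.73 for Ttr, -0.68 to 0.56 for Kl and -0.22 to 0.32 for Enpp2, so a male excess of Ttr or Kl of 1 log2 unit lay outside them.

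Within batches the estimates for the sexes were not uniform. In batch 2 males ran lower in Ttr, from 6.63 through 11.86 to 13.10, against 11.50, 13.25, 13.82 and 14.20 in the 4 females. The ranges overlapped. The difference was -2.30 ± 1.01 for Ttr, -1.66 ± 0.67 for Kl and -0.54 ± 0.12 for Enpp2 (SE, unadjusted limma p = 0.036, 0.025 and 0.00026). None of the 3 passed the adjustment over all genes, with adjusted p of 1, 1 and 0.38, and 0.0514% of all genes passed in that batch.

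In batch 3 the estimates were positive for all 5 genes, and Igfbp2 had the largest relative to its error, 0.68 ± 0.25 (SE, unadjusted limma p = 0.013, adjusted p = 1), where 0.0514% of all genes passed. In batches 4 and 6, where 0.0799% and 0.0628% of all genes passed, all 10 estimates had an unadjusted p of 0.11 or more. The interaction of sex and batch passed for none of the 5 genes, with adjusted p of 1 for each. No gene in the table passed it in limma (0%), with 306 genes, or 1.75%, at an unadjusted p under 0.05.

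The genes most like each of the 5 were sought among 13360 other genes with a mean log2 level of at least 5, by Pearson's r over 80 rats after sex and batch were removed. These values are descriptions over rats that share libraries and scaling. Few genes followed them closely: r was over 0.9 for 11 genes with Kl, 10 with Ttr, 6 with Enpp2 and 1 each with Igf2 and Igfbp2. Igf2 and Igfbp2 were each other's closest gene (0.921). For Ttr the closest was ENSRNOG00000054495 (r = 0.977), which was second for Kl (0.968). ENSRNOG00000011184 was the next gene for both Igf2 (0.873) and Igfbp2 (0.894). It was also close to Enpp2 (0.878), and had r = 0.83 with Kl and 0.76 with Ttr.

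Looser likeness was more common around Igfbp2, with r over 0.5 for 278 genes (2.08%), than around Ttr, with 137 (1.02%). Genes with r below -0.5 were fewer, 51 for Igfbp2, 11 for Enpp2, 5 for Ttr, 3 for Kl and 1 for Igf2. With column run also removed they were 33, 1, 1, 0 and 5 in that order, so the order of Enpp2, Ttr, Kl and Igf2 depends on this choice. The gene least like Igfbp2 was ENSRNOG00000056246 (r = -0.62) and that least like Enpp2 was ENSRNOG00000012098 (r = -0.57), both with a small residual SD of 0.13. Of the 100 genes most like each member, Ttr and Kl shared 88, Ttr and Enpp2 87, Enpp2 and Kl 84, and Igf2 and Igfbp2 86. The crossing pairs shared from 56 (Kl and Igfbp2) to 73 (Enpp2 and Igf2).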

How the data were processed

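RNA-Seq of polyadenylated RNA was used for 81 rats. The authors trimmed reads with cutadapt, estimated gene counts with RSEM against the Ensembl rat transcriptome and applied an upper quartile adjustment with DESeq2. The submitters' processing notes name the build Rnor_6.0. Tool versions and the strandedness of the libraries were not given in the sources used here. The deposited values are log2 of the adjusted estimated count plus 1, which was checked: undoing the log gave whole numbers within a relative 3.47e-06. The pseudocount understates differences at low counts. RSEM divides reads between similar transcripts, and no other gene had the same row as a member. Scaled totals were 16.2 to 20.2 M (1 M is 1000000 adjusted counts), and 296 to 1661 genes were at 0 per rat. Raw depth was not used.

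Sex, batch, interaction and slope were tested with limma 3.58.1 in R 4.3.3 (eBayes with trend), two-sided or by F-test, and p-values were adjusted by Benjamini-Hochberg over the whole table, with 0.05 as threshold. A count model was not used on these scaled log2 values. Correlations were tested with 100000 permutations, or all permutations for 7 rats (numpy 2.4.6, pandas 2.3.3, scipy 1.17.1, Python 3.11.15, matplotlib 3.10.9). Scripts were tested on simulated data.

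The named genes were the 5 members and, by r of residuals, their closest other genes. Of these, at most 2 identifiers with positive and 2 with negative r are printed, because the table does not pair identifiers with symbols. Lists of markers of choroid plexus, meninges and other cells were not matched here for the same reason. The members and lists were chosen with earlier results of these data known. The slope test, the column runs and the omission of single rats were added after the values were seen. Labels of male rats 8 and 9 of batch 3 had been exchanged by the authors, and both share sex and batch. Promoter windows were read from RefSeq, and no coordinates were moved between builds.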

Additional observations from a re-analysis of the deposited data

Results flagged for a closer look

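Enpp2 in male rat 26 of batch 3 was 13.68, above the 11.92 to 12.81 of the other 9 males of that batch. The gap to the nearest of them was 0.494 of the whole range, over Dixon's limit of 0.466 for 10 rats. The same rat had a Ttr of 16.47, the highest of batch 3, and a Kl of 9.78. It was 1 of 3 rats of batch 3 in the third column run, and it had 1550 genes at 0, where the median rat had 540. Their part in the value was not tested. Only this 1 of the 20 sets of 4 to 10 rats searched, by gene, sex and batch, was past its limit, and chance gives about 1 in 20.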

How the results depend on the processing

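The correlations passed for all 10 pairs under 100000 permutations with another pseudocount (8), rescaling to a common total, column run removed, and without the 2 farthest rats. The count was 4 of 10 within batch 2, within column run 1 and within batch 2 without male rat 2. Within column run 2 (12 rats) all 10 passed. Without the 2 farthest of those rats, no crossing pair did, with r from 0.193 to 0.602 (adjusted permutation p from 0.136 to 0.61). The batch F-test called 5 of 5 genes with each of the 80 rats left out, 4 with column run as a covariate (Enpp2 at an adjusted p of 0.099), 3 without batch 4, 3 without batch 6 and 0 with 20 expression components as covariates, where 35.3%, 59.6%, 54.5% and 0.114% of all genes were called. Such components also took the median residual SD of the 5 genes from 0.80 to 0.41. They were drawn from these same values, with the 5 genes and the batch differences included. The fall in SD and the loss of batch calls are therefore in part built in. Sex and interaction calls were 0 of 5 under every alternative run, and the slope calls were 2 to 4 of 4 (3 in all 80 rats) as single rats were left out.

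Of the log2 differences of the 5 genes between sexes and pairs of batches, 36 changed sign under an alternative. Of these, 19 were differences between batches that passed in neither fit, and the other 17 follow. With column run as a covariate, batch 6 minus 2 was -0.29 for Enpp2 and -0.64 for Kl, and batch 4 minus 3 was -0.70 for Ttr, -0.025 for Enpp2 and -0.18 for Kl. In that fit, batches 4 and 6 are tied to batches 2 and 3 only through the 3 rats of batch 3 in the third run. With 20 components, male minus female was 0.93 for Ttr, 0.38 for Kl, -0.29 for Igf2 and -0.24 for Igfbp2, batch 4 minus 2 was -0.20 and batch 6 minus 2 was -0.54 for Kl, and batch 4 minus 3 was -0.79 for Ttr and for Kl. Male minus female was 0.32 for Ttr and 0.23 for Kl without batch 2, and for Enpp2 -0.046 without batch 3 and -0.0051 without batch 4. The cause was not tested. With undetected genes per rat added to the model, Ttr (adjusted p = 0.065), Kl (0.068), Igf2 (0.091) and Igfbp2 (0.053) no longer passed between batches 6 and 4, at differences of -1.89, -1.42, -0.65 and -0.86, nor Ttr between batches 3 and 2 (1.90, adjusted p = 0.11) nor Igfbp2 between batches 6 and 3 (-0.54, adjusted p = 0.082). No paired analysis was possible because replicate numbers only name the rats. Depth before scaling was not in the values, so precision rests on the number of rats.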
